A study of Mus musculus with 5 samples.

Results

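The replication-dependent histone genes were examined in ChIP-seq data for Pcgf6, a RING finger protein of a variant Polycomb repressive complex 1, in mouse embryonic stem cells (ESCs). The members were all protein-coding genes of the mm9 (NCBIM37) annotation whose symbol begins with Hist1h, Hist2h, Hist3h or Hist4h, and there were 67 of them among 22359 protein-coding promoters. Membership was set by name and used no measured value. By histone type they were 6 genes for the linker histone H1, 19 for H2A, 18 for H2B, 11 for H3 and 13 for H4.

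All 5 libraries came from the CCE ESC line below passage 15, grown with LIF and cross-linked with disuccinimidyl glutarate and paraformaldehyde. Of the pull-downs, 2 used the antibody sc-160649 (Santa Cruz), 2 used ab48010 (Abcam), and 1 library was input DNA without antibody. No genotype or treatment differed between them, and no library without Pcgf6 or with a control antibody was analysed here. ChIP-seq sequences the DNA that an antibody pulls down from cross-linked chromatin, and input DNA gives the background. The repeats of each antibody largely held the same fragments. Of repeat 1, 88.0% of the positions for Santa Cruz and 88.3% for Abcam lay in repeat 2 at a shift of 1 or 15 bases. The repeats differed in their counts by less than sampling noise. They were therefore joined and counted as 1 sample per antibody, so no SD over replicates can be given. Joined, the Santa Cruz library came to 2561574 fragments and the Abcam library to 3157536, and the input came to 22281796.

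Replication-dependent histone genes are short, mostly lack introns and are packed in clusters. Their transcripts end in a stem-loop in place of a poly(A) tail, and they are made in S phase, when new DNA has to be packed into nucleosomes. Cyclin E-Cdk2 acts through Npat to switch them on, Hinfp acts at H4 promoters, and the octamer factor Pou2f1 acts at H2B promoters. The stem-loop binding protein Slbp guides the 3' end cleavage of the transcript. Pcgf6 is known from complexes that also hold the E-box binding proteins Mga and Max.

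Promoter sequences are shown first, for the members that the values below turn on. They are the bases just before the transcription start site (TSS), from the NCBIM37 genome. Hist1h2aa is shown because its window and that of its partner had more fragments with both antibodies, Hist1h1t because it is the other testis gene, Hist1h2bh because it was the one member past the threshold, and Hist1h2al because it lies far from every cluster. Capitals mark TATAAA (the TATA box), CCAAT (the CCAAT box) and ATTTGCAT (the octamer) on either strand, so that the reverse of each also stands in capitals.
Hist1h2aa, chr13:24026081-24026330, plus strand: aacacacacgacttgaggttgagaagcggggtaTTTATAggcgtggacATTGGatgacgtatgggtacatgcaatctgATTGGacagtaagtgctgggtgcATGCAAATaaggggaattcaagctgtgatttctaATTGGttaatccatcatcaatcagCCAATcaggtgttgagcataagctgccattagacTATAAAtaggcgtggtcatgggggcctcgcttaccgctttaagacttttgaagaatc
Hist1h1t, chr13:23787430-23787679, plus strand: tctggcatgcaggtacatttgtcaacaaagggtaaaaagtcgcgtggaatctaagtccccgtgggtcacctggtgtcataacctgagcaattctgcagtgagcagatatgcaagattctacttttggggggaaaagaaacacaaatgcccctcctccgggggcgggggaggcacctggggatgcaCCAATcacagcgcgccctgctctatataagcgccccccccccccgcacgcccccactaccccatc
Hist1h2bh, chr13:23635229-23635478, minus strand: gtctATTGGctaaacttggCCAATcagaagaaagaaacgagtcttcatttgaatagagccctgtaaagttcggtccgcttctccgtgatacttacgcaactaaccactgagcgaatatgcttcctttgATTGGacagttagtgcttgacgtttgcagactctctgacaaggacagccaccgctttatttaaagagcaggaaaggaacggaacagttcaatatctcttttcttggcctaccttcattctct
Hist1h2al, chr13:51298435-51298684, minus strand: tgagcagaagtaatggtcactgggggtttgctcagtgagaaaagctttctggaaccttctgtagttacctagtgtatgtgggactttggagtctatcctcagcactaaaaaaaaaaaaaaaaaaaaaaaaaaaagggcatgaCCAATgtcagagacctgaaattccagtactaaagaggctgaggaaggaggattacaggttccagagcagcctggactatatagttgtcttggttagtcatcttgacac

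The promoter of Hist1h2aa held a pair of TATA boxes, 4 CCAAT boxes and 1 octamer. Those of Hist1h1t and Hist1h2al held 1 CCAAT box each, and that of Hist1h2bh held 3. Over the 300 bases from 250 before to 50 after the TSS, the members shared more of these motifs than promoters at large. CCAAT stood in 57 of 67 members (85.1%) and in 37.8% of all promoters of the same length. Every H1, H2A and H2B promoter held it, as did 10 of 11 H3 promoters and 4 of 13 H4 promoters. TATAAA stood in 38 members (56.7%) against 13.5% of all promoters. The octamer stood in 15 members (22.4%) against 1.76%, and those were 7 H2A and 8 H2B promoters. Head-to-head H2A and H2B promoters share bases, so 1 site of any motif here can be counted at both genes. Among the 15 were both genes of the pairs Hist1h2ah and Hist1h2bk, Hist1h2ae and Hist1h2bg, and Hist1h2ac and Hist1h2bc. So were Hist1h2aa and Hist1h2ba, and Hist2h2ac and Hist2h2be. GCGGGAA, a core of E2F-type elements, stood in 7 members (10.4%) against 5.67%, and 6 of them were H4 promoters. The E-box CACGTG, which reads the same on both strands, stood in 0 members and in 7.7% of all promoters. No motif contains another, and both strands were searched. These are matches of letters only. The median GC content was 46% in members and 55.3% in all promoters.

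A second set of sequences belongs to members at which no fragment was counted in any library. Hist1h2ao and Hist1h2ap are H2A genes on opposite strands of the same cluster, and the 2001 bases centred on their TSSs were identical. The 120 bases before each TSS are given, with CCAAT in capitals on either strand.
Hist1h2ao, chr13:21902116-21902235, plus strand: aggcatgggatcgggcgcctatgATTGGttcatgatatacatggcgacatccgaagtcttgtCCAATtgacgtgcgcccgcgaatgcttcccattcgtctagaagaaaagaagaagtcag
Hist1h2ap, chr13:21925445-21925564, minus strand: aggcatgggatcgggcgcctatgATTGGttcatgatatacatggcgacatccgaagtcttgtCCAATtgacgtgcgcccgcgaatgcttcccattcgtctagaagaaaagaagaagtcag

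Fragments were counted within 2 kb of each TSS, at their middle, and the ChIP/input ratio is the ChIP share of its library divided by the input share. A ratio of 1 is the input level. All intervals are exact 95% intervals and cover counting error only. TSSs more than 100 kb apart were put in separate clusters. On chromosome 13 the Hist1 genes formed Hist1-a (18 genes, windows spanning chr13:21806012-21927627), Hist1-b (5 genes, chr13:22125512-22137083), Hist1-c (29 genes, chr13:23620919-23857537), the pair Hist1h2ba and Hist1h2aa (Hist1-d), and Hist1h2al alone (Hist1-e), 27.3 Mb beyond that pair. Hist2 held 9 genes (chr3:96021839-96075644), Hist3 held 2 on chromosome 11, and Hist4 held 1 on chromosome 6. Because the genes stand so close, 55 of the 67 windows overlapped another member's window. Merging left 33 regions of 173.728 kb in all, the largest with 5 genes, and fragments in merged regions were counted once.

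Histone promoters held little DNA in every library. The median member had 38 input fragments against 69 for all promoters, and 61 of 67 members were below that level. For Santa Cruz the median member had 5 fragments (6 for all promoters), and for Abcam it had 6 (9 for all promoters). As deposited depth scaled to ppm of the file's total, the median member had 1.75 in the input, 1.75 and 2.17 in the Santa Cruz files and 2.17 and 2.02 in the Abcam files. The corresponding medians for all promoters were 3.11 in the input, 2.62 and 2.61 with Santa Cruz, and 2.66 and 2.78 with Abcam. Members therefore stood lower than all promoters in each of the 5 files, and by most in the input. Here and below, the 2 files of an antibody hold largely the same fragments and are not independent.

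Input at these genes was lower where less of the sequence is unique. The share of 32-base stretches that occur once in the genome was at least 80% in 43 members, between 20% and 80% in 18, and below 20% in 6. Over the 67 windows, many of which overlap, input fragments and this share had a Spearman's rho of 0.62 and a Pearson's r of 0.70, given as a description. At 5 members of Hist1-a (Hist1h2bq, Hist1h2ao, Hist1h4m, Hist1h2ap and Hist1h2br) no fragment lay in the window in the input or with either antibody, and between 0.575% and 2.87% of their positions were unique. Hist1h4n, beside them, had 16.0% unique positions and 14 input fragments, with 1 fragment for Santa Cruz and 2 for Abcam. For the 5 members without input, no ratio exists and nothing can be said of Pcgf6. Other members with a ratio and many repeated positions were Hist2h2aa2 (48.5%), the pair Hist2h2aa1 and Hist2h3c1 (51.2%), Hist2h2bb (53.0%), Hist1h3f (53.6%) and Hist1h2bh (64.0%). Hist1h3e had 66.2% unique positions, Hist1h2al 71.1% and Hist1h2ai 74.9%. Over the 43 members with at least 80% unique positions, the summed ratio described next was 1.12 (0.956 to 1.30) for the Santa Cruz antibody and 1.14 (0.991 to 1.30) for the Abcam antibody, with intervals that take in 1.

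**Figure D1:**
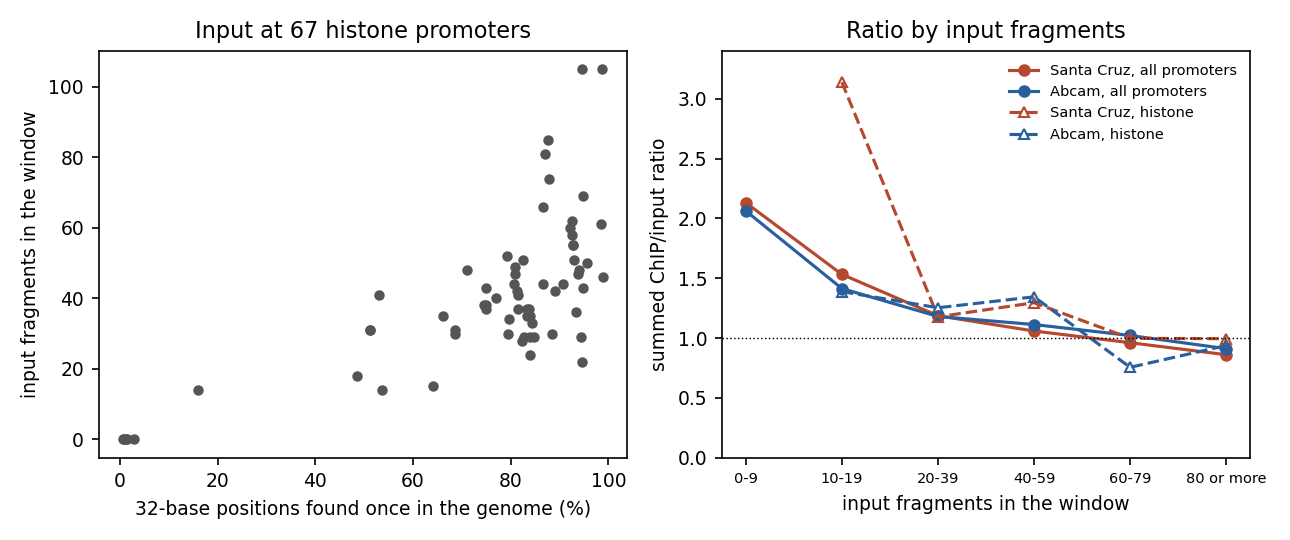
Left, input fragments within 2 kb of the TSS (vertical axis) against the percent of 32-base positions that occur once in the genome (horizontal axis), 1 point per member; the 5 members at 0 fragments are those with under 3% unique positions. Right, the summed ChIP/input ratio (vertical axis) for promoters grouped by their input fragments, for all promoters (filled) and for the histone promoters (open). Each window was summed by itself, so fragments in overlapping windows count more than once. The ratio of all promoters fell from 2.13 to 0.861 (Santa Cruz), and likewise from 2.06 to 0.911 (Abcam).

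Summed over the merged regions, histone promoters lay slightly above the input level with both antibodies, in a way that depended on the window and on which members were summed. They held 251 Santa Cruz fragments against 1830 input fragments, a ratio of 1.19 (1.04 to 1.36). With Abcam they held 309 fragments, also a ratio of 1.19 (1.05 to 1.34). Within 0.5 kb of the TSS the interval took in 1 with Santa Cruz (0.837 to 1.34) and with Abcam (0.881 to 1.34), as it did for the members with at least 80% unique positions. All 22359 promoters together had ratios of 0.940 and 0.987. Over all promoters the ratio was higher where input was low, and input is the divisor of the ratio. For the groups by input that follow, each window was summed by itself, so fragments in overlapping windows were counted more than once. Among promoters with 20 to 39 input fragments, the 25 members had summed ratios of 1.18 (Santa Cruz) and 1.25 (Abcam), and all 2291 promoters had 1.19 and 1.18. Among those with 40 to 59, the 23 members had 1.30 and 1.34 and all 3350 promoters had 1.06 and 1.11. The 6 members with 60 to 79 had 0.999 and 0.756, against 0.961 and 1.02. At the ends of the range, the 4 members with 10 to 19 had 3.14 and 1.39, against 1.53 and 1.41. Hist1h2bh and Hist1h3f are among these 4, and the 6 Santa Cruz fragments of Hist1h3f were counted at both. The 4 members with 80 or more had 0.995 and 0.938, against 0.861 and 0.911. Histone genes were thus higher with both antibodies at 40 to 59 and at 80 or more, and elsewhere they were close to level or on different sides with the antibodies. These differences were not tested.

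Few single promoters passed the test. Past an adjusted p of 0.05 in the one-sided exact binomial test over all promoters, there was 1 member with Santa Cruz, Hist1h2bh, where 0.631% of all promoters were called. With Abcam there were 0 members, where 1.08% of all promoters were called. At an unadjusted p under 0.05 there were 7 members with Santa Cruz (10.4%, against 4.97% of all promoters) and 6 with Abcam (8.96%, against 6.15%). Because of shared windows these lay in 4 and 5 merged regions. The interval of the ratio lay wholly over 1 at 6 of 67 members for Santa Cruz, a larger share than the 3.13% of all promoters. For Abcam it did so at 5 of 67, also a larger share than the 4.11% of all promoters. It lay wholly under 1 at 1 member for Santa Cruz, against 3.29% of all promoters, and at 0 for Abcam, against 3.14%. The 6 were Hist1h2bl and Hist1h2ai, Hist1h2bh and Hist1h3f, and Hist1h2ba and Hist1h2aa, which overlap in pairs. The last pair was also among the 5. Of the 58 members with at least 20 input fragments, 29 had a ratio over 1 with Santa Cruz (50%, against 38.2% of all such promoters) and 34 with Abcam (58.6%, against 42.4%). Their median ratios were 1.004 and 1.14, against 0.878 and 0.925 for all promoters with that input. These 58 members ranged between 0.300 and 2.82 for Santa Cruz, and between 0.344 and 2.50 for Abcam. With less input, Hist1h2bh (5.80) and Hist1h3f (3.73) were higher with Santa Cruz.

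**Figure D2:**
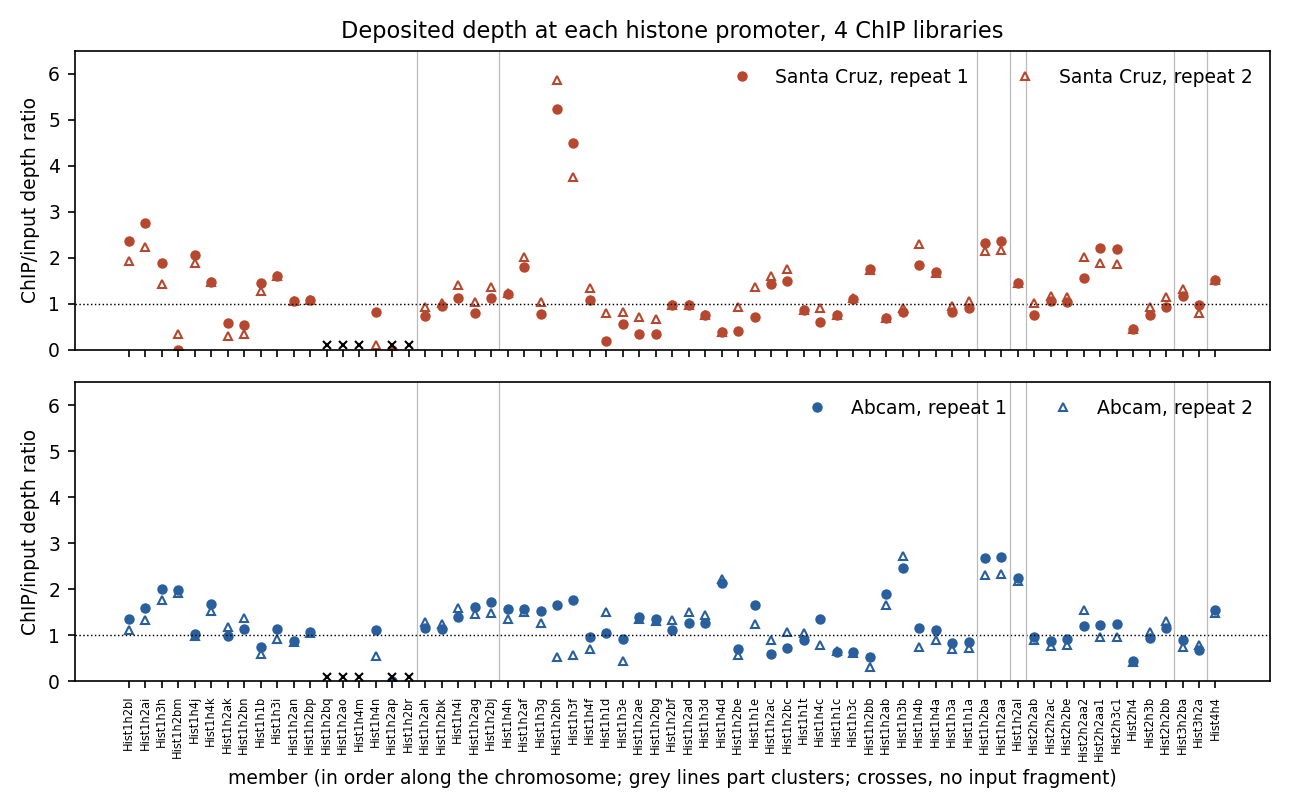
ChIP/input ratio of the deposited depth within 2 kb of each TSS (vertical axis) for the 67 members in order along chromosomes 13, 3, 11 and 6 (horizontal axis), Santa Cruz above and Abcam below, with both repeats of each antibody. Most members lie near 1; Hist1h2bh and Hist1h3f stand highest with Santa Cruz, and Hist1h2ba and Hist1h2aa are above 2 in all 4 files.

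By cluster, the whole of Hist1 had a summed ratio of 1.25 (1.07 to 1.46) for the Santa Cruz antibody and of 1.29 (1.12 to 1.48) for the Abcam antibody. Hist1-a had 1.43 (1.05 to 1.91) and 1.11 (0.812 to 1.50). Hist1-b had 1.22 (0.643 to 2.14) and 1.48 (0.879 to 2.39), and Hist1-c, the largest cluster, had 1.09 (0.872 to 1.35) and 1.19 (0.984 to 1.44). The intervals of these 3 clusters overlapped with either antibody. Hist2 lay lower, at 0.919 (0.617 to 1.32) and 0.769 (0.520 to 1.10), with intervals that take in 1. Differences between clusters were not tested.

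Hist3 holds a single H2A and a single H2B gene. Hist3h2ba had 58 input fragments, 8 with Santa Cruz and 7 with Abcam, and Hist3h2a had 62, 6 and 6. Together they had ratios of 1.01 (0.539 to 1.77) and 0.764 (0.396 to 1.36), with intervals that take in 1, so no difference from the input was detectable at this depth. Hist4h4, the only gene of Hist4, is one of several genes that encode the same H4 protein. Its scaled depth in ppm was 4.88 in the input, 7.42 and 7.39 in the Santa Cruz files and 7.50 and 7.25 in the Abcam files. All 4 ChIP files were above the input. Its 18 and 25 fragments against 105 gave ratios of 1.49 (0.851 to 2.47) and 1.68 (1.04 to 2.62), with an adjusted p of 1 and of 0.491 in the exact binomial test. Within 0.5 kb of the TSS its ratios were 0.590 and 1.08, so most of the surplus lay farther out. Its window overlaps that of H2afj, a replication-independent H2A gene with its TSS 3869 bp away.

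**Figure D3:**
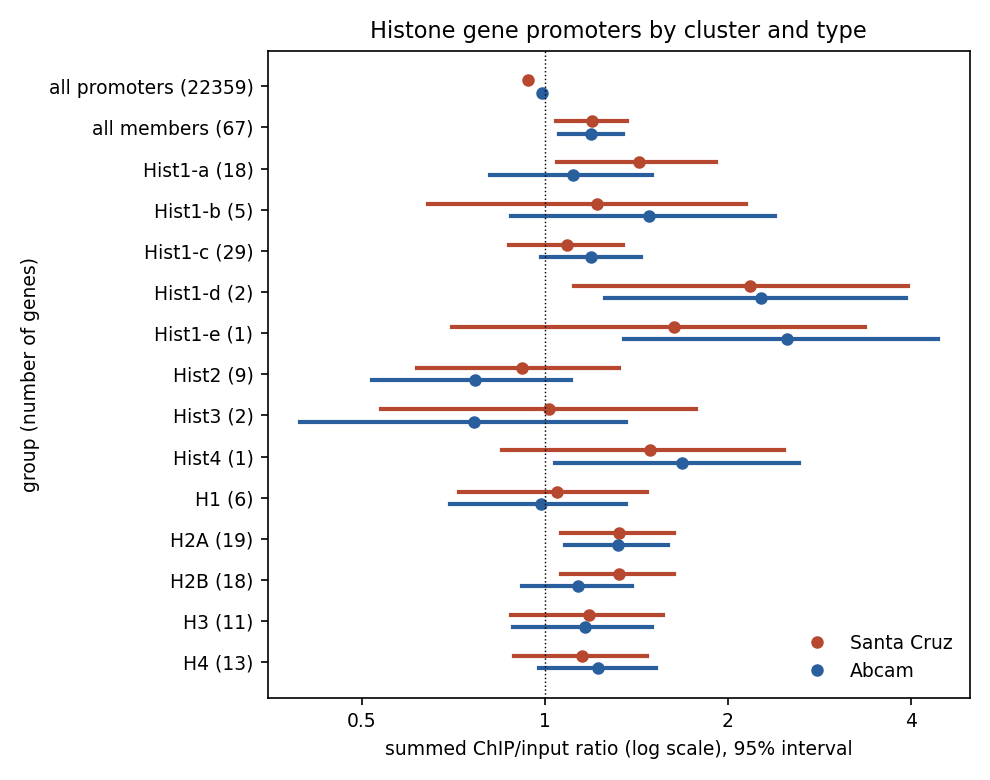
Summed ChIP/input ratio on a log scale (horizontal axis) for all promoters, all members, each cluster and each histone type (vertical axis, number of genes in brackets), with Santa Cruz and Abcam points and exact 95% intervals. The 2 genes of Hist1-d stand at 2.17 and 2.27, Hist2 lies at 0.919 and 0.769, and the 5 histone types overlap each other.

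By histone type, the linker histone genes were closest to the input level, with ratios of 1.04 (0.722 to 1.47) and 0.985 (0.699 to 1.36), Santa Cruz given before Abcam. The core histone genes had 1.32 (1.06 to 1.63) and 1.32 (1.08 to 1.60) for H2A, 1.32 (1.06 to 1.63) and 1.13 (0.918 to 1.39) for H2B, 1.18 (0.881 to 1.56) and 1.16 (0.887 to 1.50) for H3, and 1.15 (0.891 to 1.47) and 1.22 (0.977 to 1.52) for H4. All 5 intervals overlapped with either antibody. H2A and H2B genes often stand head to head and share their windows. When each fragment was given only to the nearest histone TSS, H2A had 1.17 (0.866 to 1.55) and 1.26 (0.968 to 1.62), and H2B had 1.47 (1.12 to 1.91) and 1.16 (0.875 to 1.50). The interval of H2A then took in 1 with both antibodies, and that of H2B took in 1 with Abcam.

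The ratio of the members was no higher close to the TSS than over the whole window. All promoters held most DNA close to the TSS in each library, input included. In bins of 100 bp, the members' Santa Cruz density was highest in the bin just before the TSS, at 1.02 fragments per kb and per 1e6 fragments of the library (17 fragments). The members' input was highest in the same bin, at 0.850 (123 fragments). Their Abcam density was highest 400 to 500 bp downstream, at 1.11 (23 fragments). Within 0.5 kb of the TSS, members had ratios of 1.07 (0.840 to 1.34) and 1.10 (0.884 to 1.35), in the same order of antibodies. In the 0.5 kb just upstream, where the promoter elements lie, they had 0.875 (0.596 to 1.25) and 0.960 (0.690 to 1.31). From 0.5 to 1 kb downstream, which is often beyond the end of such short genes, they had 1.45 (1.07 to 1.94) and 1.44 (1.09 to 1.88). In the DNA between the windows inside Hist1-a, Hist1-b, Hist1-c and Hist2 (270.196 kb), the ratios were 1.15 (1.01 to 1.30) and 1.03 (0.909 to 1.16). These values cover 4 clusters only, and the summed promoter ratio above covers all 67 members, so the sets are unlike. By cluster, the DNA between the windows had 1.23 and 0.915 in Hist1-a, 1.12 and 1.09 in Hist1-c, and 1.14 and 0.977 in Hist2. Each of those intervals took in 1. The promoters of the same clusters had 1.43 and 1.11, 1.09 and 1.19, and 0.919 and 0.769. Between the windows of Hist1-b lay only 8 input fragments. The differences were not tested.

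**Figure D4:**
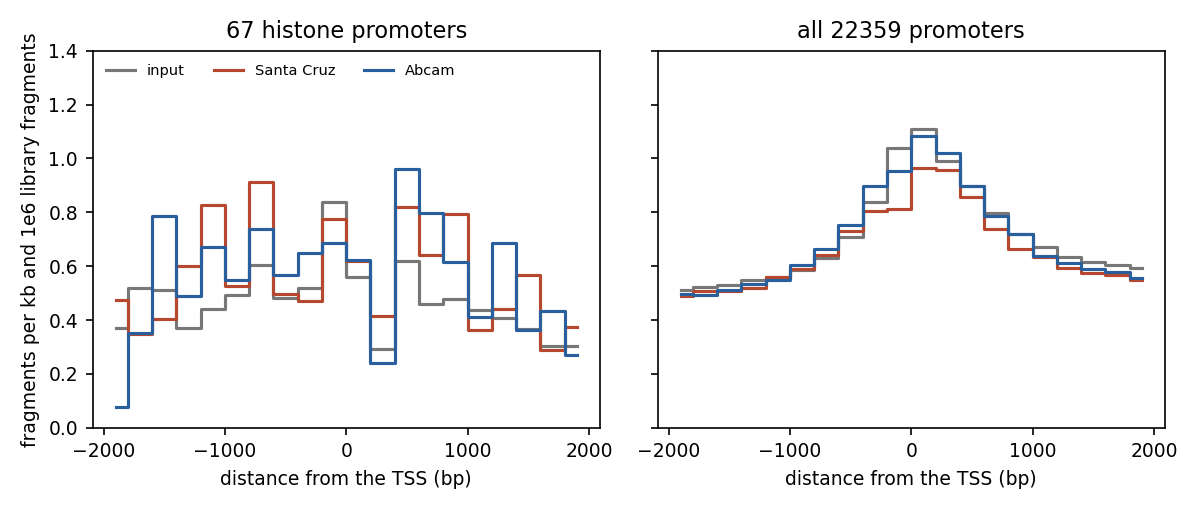
Fragments per kb and per 1e6 fragments of the library (vertical axis) in 200-bp bins by distance from the TSS (horizontal axis), for the 67 histone promoters, left, and all 22359 promoters, right, in the input and the joined library of each antibody. In the histone promoters the input is highest beside the TSS, as in all promoters, and both antibodies have several maxima across the window.

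The pair Hist1h2ba and Hist1h2aa stood out with both antibodies. They encode the testis histones TH2B and TH2A, which replace the usual H2B and H2A in spermatogenic cells, and are transcribed away from each other from TSSs 306 bp apart (chr13:24026025 and chr13:24026331). At Hist1h2ba, scaled depth in ppm was 2.44 in the input, 5.68 and 5.22 in the Santa Cruz files and 6.52 and 5.61 in the Abcam files. All 4 ChIP files were more than double the input, but the 2 files of each antibody are not independent. The window of either gene held 55 input fragments, 14 Santa Cruz fragments and 18 Abcam fragments. The ratios at Hist1h2ba were 2.21 (1.14 to 4.04) and 2.31 (1.28 to 3.99). In the exact binomial test the adjusted p was 0.523 with Santa Cruz and 0.184 with Abcam, so neither passed over all promoters. Within 0.5 kb of the Hist1h2ba TSS, 8 and 7 fragments against 17 gave ratios of 4.09 and 2.91. The lower bounds of their intervals were 1.53 and 1.02. Within 0.5 kb of the Hist1h2aa TSS, 9 and 8 fragments against 25 gave 3.13 (1.29 to 6.94) and 2.26 (0.880 to 5.16). The latter interval took in 1. Within 3 kb the ratios were 2.12 and 1.72 (0.983 to 2.87) at Hist1h2ba, and 2.14 and 1.84 at Hist1h2aa. Of these, only the interval in brackets took in 1. Within 2 kb the pair's values are 1 measurement and not 2, since the windows are almost the same DNA.

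Hist1h1t, the testis-specific linker histone gene, was close to the input level over the window. Its scaled depth in ppm was 2.02 in the input, 1.75 and 1.74 in the Santa Cruz files and 1.81 and 2.11 in the Abcam files. The 4 and 6 fragments against 46 gave ratios of 0.756 (0.198 to 2.07) and 0.920 (0.321 to 2.16). Within 0.5 kb of its TSS, 1 and 3 fragments against 9 gave 0.966 and 2.35. The intervals of Hist1h1t and of the pair overlap with both antibodies, and the difference between them was not tested.

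Hist1h2bh, an H2B gene of Hist1-c with its TSS at chr13:23635228, was the member past the threshold. Its scaled depth in ppm was 0.66 in the input, 3.44 and 3.86 in the Santa Cruz files, and 1.09 and 0.35 in the Abcam files. Both Santa Cruz files were above the input, and the Abcam files lay on either side of it. The 10 Santa Cruz fragments against 15 gave a ratio of 5.80 (2.33 to 13.8), with an adjusted p of 0.0205 in the exact binomial test. With Abcam, 3 fragments gave 1.41 (0.262 to 4.99). Between the antibodies, the exact binomial test gave p = 0.0392 before adjustment and 1 after it. Only 1 of the 10 fragments lay within 0.5 kb of the TSS, where the ratio was 1.24, and 5 lay within 1 kb. The Santa Cruz call was lost with windows of 0.5, 1 and 3 kb, at ratios of 1.24, 3.95 and 2.99. Without repeat 2 the ratio was 5.21 (1.91 to 13.1), with an adjusted p of 0.114 in the exact binomial test. Hist1h3f, an H3 gene whose TSS is 693 bp away, shares 6 of these fragments and had 14 in the input, with ratios of 3.73 and 1.51.

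**Figure D5:**
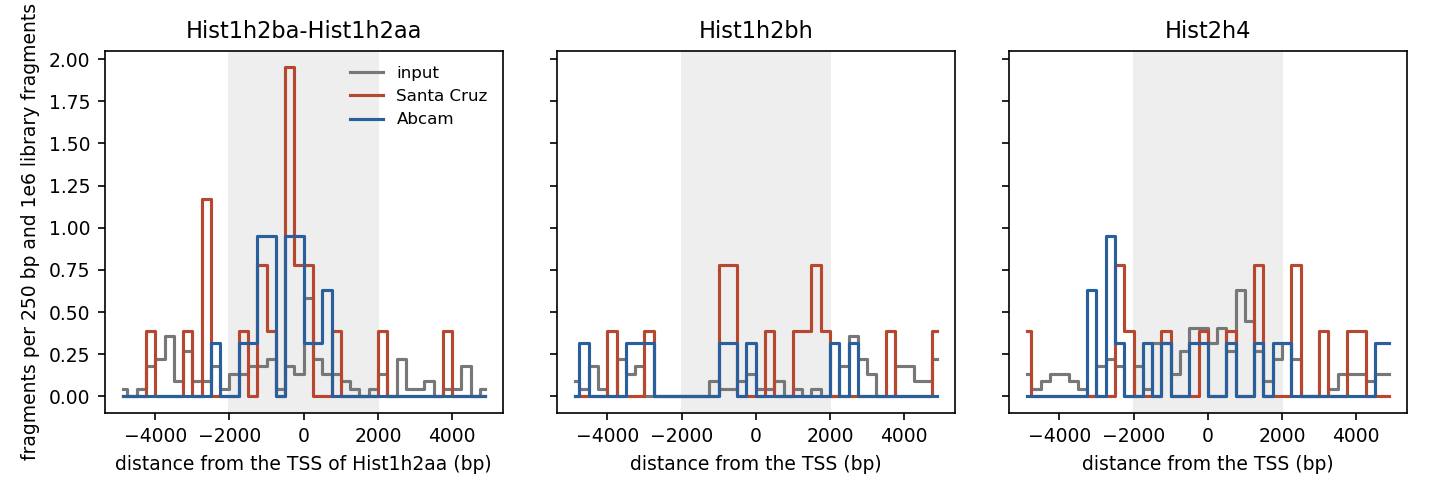
Fragments per 250 bp and per 1e6 fragments of the library (vertical axis) by distance from the TSS (horizontal axis) at Hist1h2ba and Hist1h2aa, Hist1h2bh and Hist2h4, in the input and the joined library of each antibody; the grey band is the window of 2 kb on each side. At the testis pair both antibodies rise near the TSSs, at Hist1h2bh the Santa Cruz fragments lie apart from the TSS, and at Hist2h4 the band holds 5 Santa Cruz, 7 Abcam and 105 input fragments.

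Further members with high ratios were H2A and H3 genes of Hist1. Hist1h2al, the H2A gene far from the clusters, had a scaled depth in ppm of 2.09 in the input, 3.06 and 3.04 with Santa Cruz and 4.71 and 4.56 with Abcam. All 4 ChIP files were above the input. Its ratios were 1.63 (0.704 to 3.36) and 2.50 (1.35 to 4.42), with an adjusted p of 0.138 for Abcam, the lowest of any member with that antibody. Of its 17 Abcam fragments, 1 lay within 0.5 kb of the TSS and 6 within 1 kb. Hist1h2ai had a scaled depth in ppm of 1.69 in the input, 4.65 and 3.76 with Santa Cruz and 2.69 and 2.26 with Abcam. Its 12 Santa Cruz fragments against 37 gave 2.82 (1.34 to 5.53), with an adjusted p of 0.295, and its 7 Abcam fragments gave 1.34 (0.502 to 3.03). Hist1h3h, the next gene along and in an overlapping window, had 43 input fragments, 9 with Santa Cruz and 11 with Abcam, with ratios of 1.82 and 1.81. Hist1h2ai and Hist1h3h form 1 merged region with Hist1h2bl, which held 12 and 11 fragments against 55 in all. Its ratios were 1.90 (0.925 to 3.59) and 1.41 (0.666 to 2.73), with intervals that take in 1. The adjusted p values at Hist1h2al and Hist1h2ai come from the exact binomial test. None of Hist1h2al, Hist1h2ai and Hist1h3h passed.

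At the low end, Hist2h4, an H4 gene of Hist2, had a scaled depth in ppm of 4.88 in the input, 2.18 and 2.17 in the Santa Cruz files and 2.13 and 2.05 in the Abcam files. All 4 ChIP files were below the input. Its 5 and 7 fragments against 105 gave ratios of 0.414 (0.132 to 0.998) and 0.470 (0.185 to 1.004). With Santa Cruz it was the single member with an interval wholly below 1, a direction in which no test was run. Hist1h3c, with 37 input fragments, had 4 and 3, or ratios of 0.940 and 0.572. Hist1h2be, with 69, had 7 and 6, or ratios of 0.883 and 0.614. The annotated main TSS of Hist1h2be lies 35168 bp from its coding start, beside the H1 gene Hist1h1e. At the coding start, 6 and 5 fragments against 45 gave 1.16 (0.404 to 2.73) and 0.784 (0.243 to 1.97).

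The antibodies were also compared directly. No member differed between Santa Cruz and Abcam past an adjusted p of 0.05 in the two-sided exact binomial test, where 0.00894% of all promoters did. At an unadjusted p under 0.05 there were 2 members, or 2.99%, against 2.4% of all promoters. One was Hist1h2bh, higher with Santa Cruz. The other was Hist1h4d, an H4 gene, chosen here after its values were seen. Its scaled depth in ppm was 2.21 in the input, 0.87 in each Santa Cruz file, and 4.71 and 4.91 in the Abcam files. The Abcam files were above the input and the Santa Cruz files below it. The 2 and 16 fragments against 47 gave ratios of 0.370 (0.0436 to 1.41) and 2.40 (1.27 to 4.31), and that exact test gave p = 0.00528 before adjustment and 1 after it.

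Genes that act on histone gene expression were taken from a list of 17, all of which were found. With either antibody 0 passed the threshold in the exact binomial test, where 0.631% (Santa Cruz) and 1.08% (Abcam) of all promoters did. At an unadjusted p under 0.05 there were 1 with Santa Cruz and 2 with Abcam, against 4.97% and 6.15% of all promoters. Their summed ratios were 0.885 (0.733 to 1.06) and 1.02 (0.871 to 1.19). Ccne2, the cyclin E2 gene, was highest, with 21 and 25 fragments against 100 and ratios of 1.83 (1.08 to 2.95) and 1.76 (1.09 to 2.76). With Santa Cruz the interval lay wholly under 1 at 2 genes of the list, against 3.29% of all promoters. These were Lsm11 at 0.303 (0.0614 to 0.917) and Cpsf3 at 0.307 (0.0621 to 0.928). With Abcam, Lsm11 had 1.07 (0.546 to 1.92) and Cpsf3 had 1.41 (0.786 to 2.39). Npat had 0.743 (0.289 to 1.60) and 1.64 (0.937 to 2.72), Hinfp had 0.621 (0.222 to 1.41) and 0.672 (0.281 to 1.39), and Slbp had 0.828 (0.386 to 1.58) and 0.941 (0.497 to 1.65). Of 14 replication-independent histone genes 13 were found. None of these 13 passed in the exact binomial test with either antibody. At an unadjusted p under 0.05 there were 0 with each, against 4.97% and 6.15% of all promoters. The interval lay wholly under 1 at 1 of the 13 with Santa Cruz, Hils1, with 0 fragments against 76 (Abcam ratio 1.02). With Abcam it did so at 2, against 3.14% of all promoters. These were H2afj at 0.277 and H2afx at 0.432, with Santa Cruz ratios of 1.19 and 1.33. In the two-sided exact binomial test between the antibodies, 3 had an unadjusted p under 0.05, against 2.4% of all promoters. The 13 genes had summed ratios of 0.870 (0.712 to 1.05) and 0.865 (0.721 to 1.03), with 22.1 input fragments per kb against 10.5 in the replication-dependent members. The difference between these lists and the members was not tested.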

How the data were processed

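Per the labels, chromatin of CCE ESCs was sequenced after pull-down with either Pcgf6 antibody, or without (input). The authors deposited, for each library, a coverage signal on mm9: at each position, how many reads, extended to 300 bp, lie over it, unscaled and not divided by input. The submitters' processing notes name Bowtie 0.1.2.7; the mapping filter and the treatment of duplicates are not given in the sources used here. From the depth, fragment positions were recovered and 1 fragment was kept per position. Repeats of an antibody, which share fragments at a shift of 1 or 15 bases, were joined. How reads from repeated sequence were placed can change the counts at these genes.

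Windows of 2 kb on each side of the main TSS (the one of most protein-coding transcripts, GENCODE, NCBIM37) were counted. Ratios were scaled by library totals, with exact Clopper-Pearson 95% intervals. Exact binomial tests (one-sided against input, two-sided between antibodies) were adjusted after Benjamini and Hochberg over 22359 promoters, with a threshold of 0.05. They compare the fragments of 2 libraries, not replicates, and the same input serves both antibodies. The members and gene lists were chosen with earlier results of these data known. Named members were those past the threshold, the 5 highest and 3 lowest by the ratio over both antibodies among those with at least 20 input fragments, the testis genes, and all of Hist3 and Hist4. Others were named after their values were seen. Alternatives were other windows, scaling, TSSs, duplicates, an input minimum, each repeat left out, the deposited depth and, chosen after seeing the data, members with at least 80% unique positions and each file's depth alone. The recovery of fragments and the one-sided promoter test were tested on simulated data, and the other steps were not. With a planted 2-fold enrichment, the test called 2 of 67 members with Santa Cruz and 5 with Abcam. With a planted 3-fold enrichment it called 33 and 29. Scripts ran in Python 3.11.15 (scipy 1.17.1, numpy 2.4.6, numba 0.67.0, matplotlib 3.10.9, pandas 2.3.3).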

Additional observations from a re-analysis of the deposited data

How the results depend on the processing

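The summed ratio over the members stayed above 1 under every alternative run, between 1.06 and 1.22 for Santa Cruz, and between 1.09 and 1.22 for Abcam, and without any 1 merged region it ranged from 1.16 to 1.24 with either antibody. With one repeat left out its range was 1.15 to 1.22 (Santa Cruz) or 1.14 to 1.22 (Abcam). Its interval took in 1 with the 0.5 kb window and with at least 80% unique positions for both antibodies, with at least 20 input fragments and without repeat 2 for Santa Cruz (lower bounds 0.996 and 0.991), and without repeat 1 for Abcam (lower bound 0.999). The count of members past the threshold depended on the setting. With Santa Cruz it was 1 (Hist1h2bh), and 0 with windows of 0.5, 1 or 3 kb, with at least 20 input fragments, and among members with at least 80% unique positions; the last 2 settings leave Hist1h2bh out by construction, and for the windows the cause was not tested. Leaving out one repeat gave 0 to 1 with Santa Cruz, with 0 where repeat 2 was left out, and 0 with Abcam and between the antibodies. With all fragments as deposited, which counts a fragment shared by the repeats once for each repeat, it was 2 with Santa Cruz (Hist1h2ai and Hist1h2bh), 3 with Abcam (Hist1h4d, Hist1h2ba and Hist1h2aa) and 1 between the antibodies (Hist1h4d); the same setting called 384 promoters with Santa Cruz, 620 with Abcam and 139 between the antibodies over all genes, against 141, 241 and 2. No paired analysis was possible because the input library has no repeat and the repeats of each antibody hold the same fragments. Depth limits these results: a median member held 5 or 6 ChIP fragments, and 9 of 67 members had fewer than 20 input fragments.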
